A study of Mus musculus with 6 samples.

Results

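The 9 genes described here encode the phosphatase calcineurin, its RCAN inhibitors and the NFAT transcription factors: Rcan1, Rcan2, Ppp3ca, Ppp3cb, Ppp3r1, Nfatc1, Nfatc2, Nfatc3 and Nfatc4. The genes are given by name, the rule uses no measured value, and every non-control probe whose RefSeq accession belongs to one of them was taken. This gave 12 probes of 55681 on the array and 9 genes of the 20145 that could be named. Nfatc1, Nfatc2 and Nfatc3 had a pair of probes each and the other genes 1 probe each. The study asked what the transcription factor Tead1 does in adult cardiomyocytes, and RNA of the heart ventricle was measured on one-colour Agilent arrays. The icKO group was 3 mice with floxed Tead1 alleles and Myh6-CreER (Tead1F/F; Myh6-CreER) given tamoxifen, and the control group was 3 Tead1 flox mice given tamoxifen. All were C57bl/6j males aged 11 to 12 weeks, labelled as biological replicates. The Myh6 promoter drives the tamoxifen-activated Cre recombinase in cardiomyocytes, so other cells of the ventricle keep Tead1. No Cre is named for the control mice, so effects of Cre and of Tead1 loss cannot be told apart, and the sources used here do not give the time between tamoxifen and harvest.

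Calcineurin is a phosphatase switched on by calcium and calmodulin. It has a catalytic A subunit (Ppp3ca and Ppp3cb, with the testis-enriched Ppp3cc) and a regulatory B subunit that binds calcium (Ppp3r1). It removes phosphates from the cytoplasmic NFAT proteins Nfatc1 to Nfatc4, which then enter the nucleus and bind DNA, often beside AP-1, GATA or MEF2 factors. In cardiomyocytes the pathway is known for driving hypertrophic growth. RCAN proteins bind calcineurin and restrain it, and Rcan1 is itself known as a transcriptional target of calcineurin and NFAT, which makes its mRNA a common readout of the pathway. Phosphatase activity and the location of NFAT proteins were not measured here.

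Promoter windows are shown for Rcan1 and Nfatc2, the genes whose representative probes differed between groups, because NFAT proteins are known to bind such windows at the letters GGAAA. The sequences are RefSeq windows of GRCm38.p6, 5′ to 3′ on the gene's strand, running from 250 bases before to 50 bases after a transcript start. Capitals mark the letters GGAAA on either strand (TTTCC where the match is on the opposite strand). Both genes lie on the minus strand. Rcan1 start 1 is chr16:92466120-92466419, Rcan1 start 2, which lies downstream of it within the gene, is chr16:92400029-92400328, Nfatc2 start 1 is chr2:168601608-168601907, and Nfatc2 start 2 is chr2:168590316-168590615.
Rcan1 start 1: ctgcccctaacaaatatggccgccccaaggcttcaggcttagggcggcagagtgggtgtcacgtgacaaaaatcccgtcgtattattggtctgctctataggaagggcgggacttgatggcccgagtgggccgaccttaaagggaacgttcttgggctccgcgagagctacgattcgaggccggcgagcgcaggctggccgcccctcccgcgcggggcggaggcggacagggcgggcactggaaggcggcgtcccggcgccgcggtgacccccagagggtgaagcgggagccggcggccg
Rcan1 start 2: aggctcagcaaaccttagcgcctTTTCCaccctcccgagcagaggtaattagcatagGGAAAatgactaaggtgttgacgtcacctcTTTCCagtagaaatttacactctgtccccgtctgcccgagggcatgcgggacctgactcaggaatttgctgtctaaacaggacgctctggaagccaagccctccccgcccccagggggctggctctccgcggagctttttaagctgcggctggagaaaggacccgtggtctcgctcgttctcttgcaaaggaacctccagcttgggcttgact
Nfatc2 start 1: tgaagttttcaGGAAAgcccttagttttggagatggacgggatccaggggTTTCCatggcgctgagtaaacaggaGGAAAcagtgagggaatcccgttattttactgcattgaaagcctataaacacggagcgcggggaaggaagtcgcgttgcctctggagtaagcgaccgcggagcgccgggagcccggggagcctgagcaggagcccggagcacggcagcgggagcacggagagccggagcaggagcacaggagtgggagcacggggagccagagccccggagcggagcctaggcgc
Nfatc2 start 2: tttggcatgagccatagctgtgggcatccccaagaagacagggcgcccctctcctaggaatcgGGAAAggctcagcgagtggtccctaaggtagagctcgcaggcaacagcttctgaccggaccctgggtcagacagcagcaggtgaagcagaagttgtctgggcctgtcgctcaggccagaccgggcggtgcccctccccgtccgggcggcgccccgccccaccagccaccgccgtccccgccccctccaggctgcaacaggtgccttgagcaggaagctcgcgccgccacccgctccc

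The upstream Rcan1 window held no GGAAA, and the downstream one held 3, at positions -227, -193 and -163 relative to the start. A count of 3 or more was found in 9.42% of the 32851 promoter windows of the table, and at least 1 in 61.3%. The downstream Rcan1 window also held 1 match to the AP-1 letters TGANTCA, at position -110, which 7.81% of all windows hold. Nfatc2 had 3 GGAAA matches in the window of start 1 and 1 in that of start 2. The TEAD letters GGAATG, searched on both strands like the others, had 0 matches in the 12 windows of these genes, against 14.7% of all windows with a match. No match overlapped another. The table held 12 windows for 7 of the 9 genes. Among the others, Ppp3cb had 4 GGAAA matches (4 or more in 2.65% of all windows), Nfatc4 had 3, the first Rcan2 start had 2, the third Rcan2 start had an AP-1 match at position -25, 1 of the Nfatc3 starts had 1, and Ppp3r1 had 0. A match of letters describes the window and says nothing about binding. Which transcript start each probe follows is not known here.

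**Figure D1:**
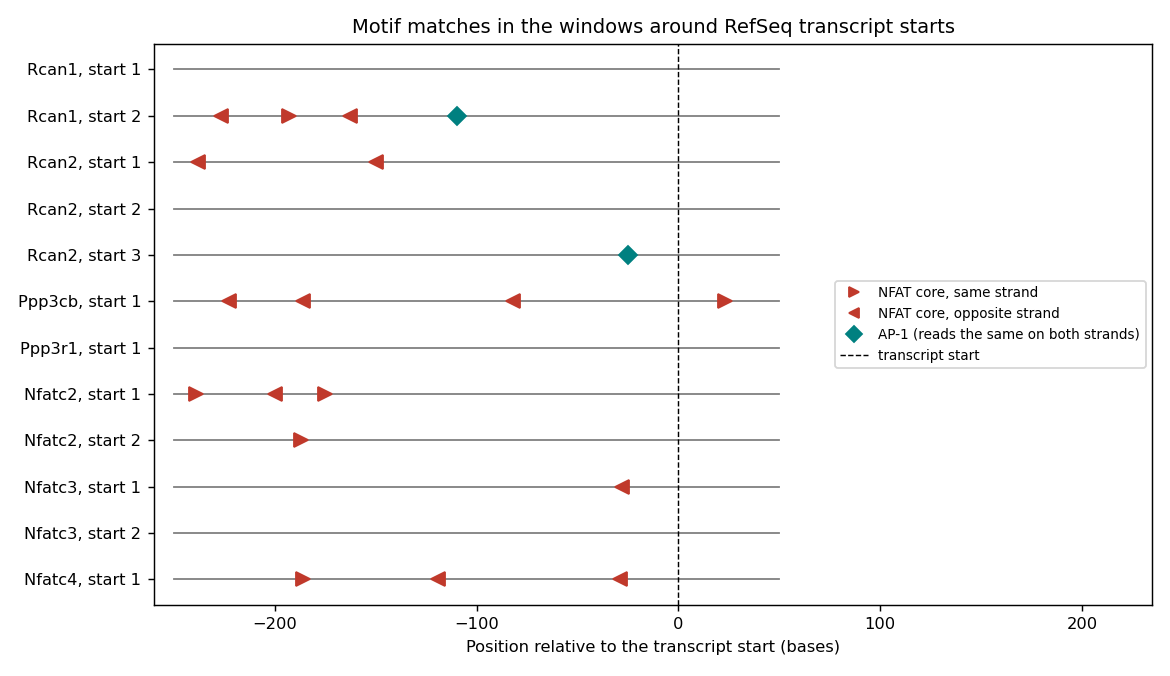
Each row is 1 promoter window of a member gene, from 250 bases before to 50 bases after the RefSeq transcript start (dashed line), with position in bases on the horizontal axis. Triangles mark GGAAA (NFAT core) by strand and diamonds mark TGANTCA (AP-1); the downstream Rcan1 start has 3 triangles and 1 diamond and the upstream start has no mark.

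Levels below are log2 signals relative to each array's 75th percentile signal, so 0 is the 75th percentile and 1 unit is a doubling. Differences are icKO minus control with the standard error (SE) of the limma fit. The arrays shared 1 slide, with icKO arrays in columns 2, 3 and 3 and controls in columns 1, 1 and 2, so position across the slide and group can hardly be told apart. The 75th percentile signal was 311.9, 347.5 and 291.8 in icKO and 189.1, 232.5 and 215 in control arrays. No spot was saturated. Correlations between arrays were 0.987 to 0.992 within icKO, 0.989 to 0.992 within controls and 0.947 to 0.958 between the groups. Over all features the median difference was -0.14, and scaling on the array median, by quantiles or on the spike-in probes moved it up by 0.16, 0.08 and 0.43. The brightest of 3 Tead1 probes read 3.66, 3.44 and 3.46 in icKO and 4.01, 3.79 and 3.96 in controls, a difference of -0.40 ± 0.11 (limma adjusted p = 0.03). The other Tead1 probes differed by -0.43 (adjusted p = 0.0202 over all kept probes) and by -0.19 with overlapping groups (adjusted p = 0.25). Their places relative to the floxed part are not known, so they do not check the labels, and under spike-in scaling the difference of the brightest was 0.03 (adjusted p = 0.884).

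Of the 9 genes, 2 rose in icKO ventricles, Rcan1 and Nfatc2, and 0 fell (limma, Benjamini-Hochberg adjusted over all 22292 features, threshold 0.05). This is 22.2% of the genes, against 44.8% of all features called in either direction, 16.0% called higher and 28.7% called lower. Of the 12 probes, 3 rose and 1 fell, against 44.3% of the 26166 kept probes called in either direction, 16.1% higher and 28.2% lower. All 12 probes were well above background on all 6 arrays, so none owes its place to a filter on low values. The median difference of the 9 genes was -0.04. The groups did not overlap for 4 of the 9 genes (Rcan1, Ppp3ca, Nfatc2 and Nfatc3), against 59.3% of features with 6 values. The difference of Rcan1, 2.33, stood beside 8 genes whose differences were at most 0.57 in size.

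Rcan1, the calcineurin inhibitor that calcineurin signalling is known to induce, was the member with the greatest change. Its probe (A_52_P617327, RefSeq NM_019466) read 4.66, 4.69 and 4.79 in icKO ventricles, against 2.44, 2.14 and 2.55 in control ventricles. The 3 icKO arrays lay close together and the lowest of them lay 2.11 above the highest control. As scanner intensity before scaling, these were processed signals of 7880, 8943 and 8075 in icKO and 1028, 1025 and 1260 in controls. The means were 4.71 ± 0.07 in icKO and 2.38 ± 0.21 in controls (SD, n = 3 each), a difference of 2.33 ± 0.13 (95% interval 2.02 to 2.65), or 5.04-fold, with a limma adjusted p of 0.000176. Counted down from the largest rise, its difference was 285th of the 22292 features and 233rd of the 12978 named genes tested. It passed the threshold in all 20 alternative settings, with differences of 2.22 to 2.76. Within slide row 1 the difference was 2.19 and within row 2 it was 2.58. In slide column 2, the only column with both groups, 1 icKO array stood 2.11 above 1 control array.

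Rcan2, the second RCAN inhibitor, was not called. Its probe (A_55_P1961736, NM_207649) read 6.59, 6.60 and 6.65 in icKO and 6.70, 6.63 and 6.69 in controls. The groups overlapped and all 6 values spanned 0.11. The difference was -0.06 ± 0.08 with a 95% interval of -0.26 to 0.15 (limma adjusted p = 0.617), so on this scale the interval leaves out a rise of over 0.15 and a fall of over 0.26. Scaled on spike-in probes the difference was 0.37 and did not pass (adjusted p = 0.0978). The third family member, Rcan3, belongs to the list of partners and regulators and differed by 0.06 ± 0.18 (adjusted p = 0.808).

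**Figure D2:**
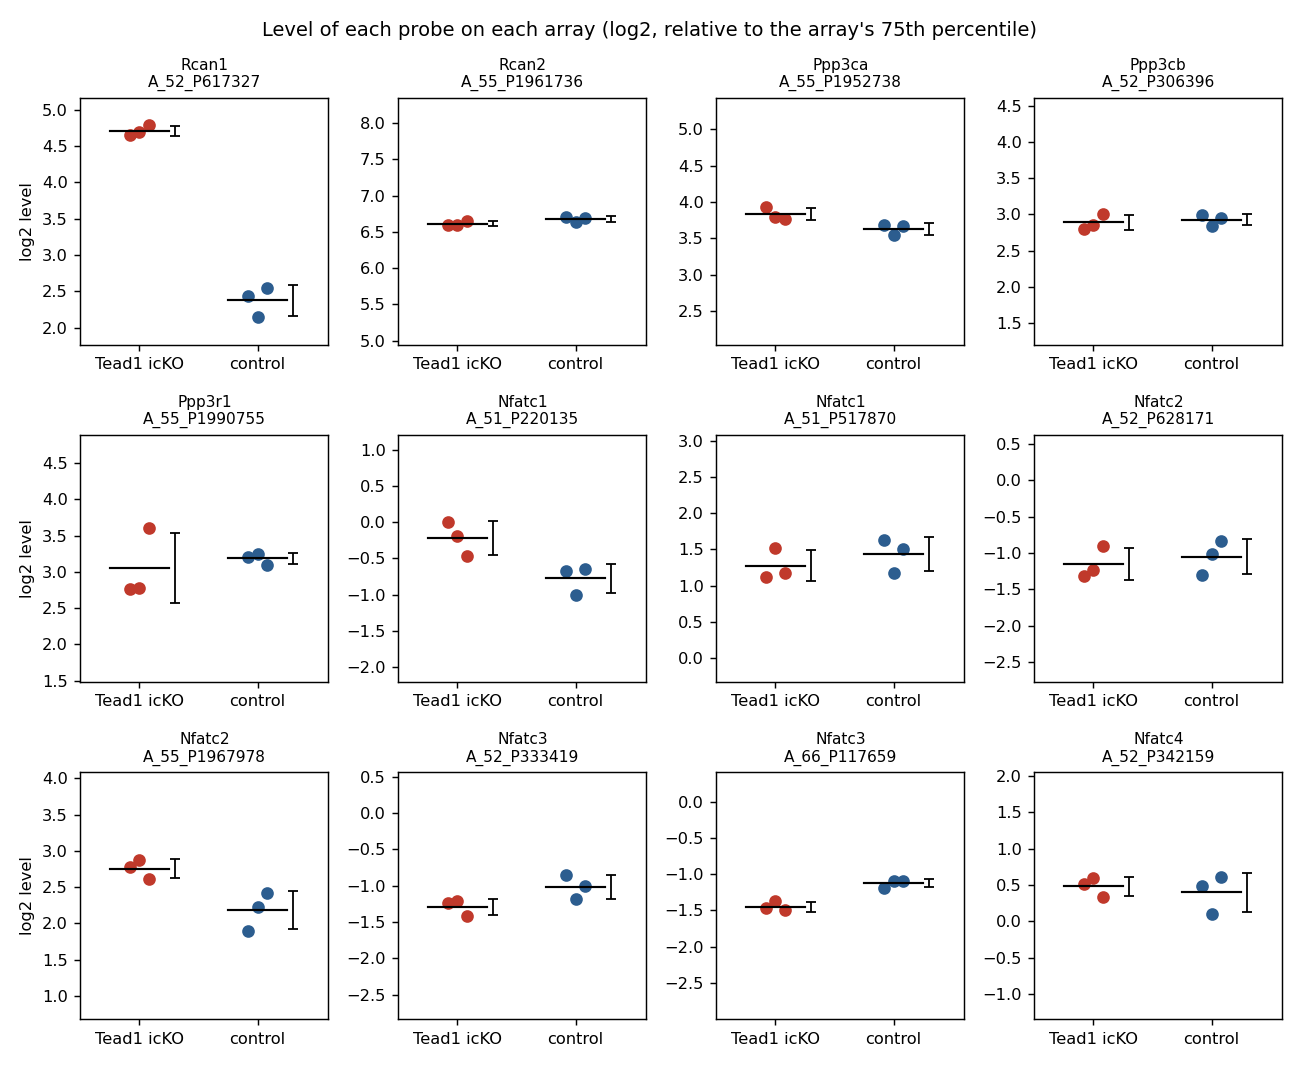
Log2 signal relative to the 75th percentile of its array (vertical axis) for each of the 12 probes, 1 panel per probe, 1 point per array, icKO left of control, with a line at the group mean and a bar of 1 SD to each side; every panel spans the same number of log2 units. The Rcan1 groups are 2.33 units apart, while the Rcan2, Ppp3cb, Ppp3r1 and Nfatc4 groups overlap.

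The calcineurin subunits showed no called change. Ppp3ca, a catalytic subunit gene, read 3.93, 3.80 and 3.77 in icKO and 3.68, 3.54 and 3.67 in controls (A_55_P1952738). Every icKO value lay above every control value, by as little as 0.09. The difference of 0.20 ± 0.10 (95% interval -0.03 to 0.44) did not pass the test (limma adjusted p = 0.133), although it did after normexp background correction (0.32, adjusted p = 0.02) or when arrays were scaled on spike-in probes (0.63, adjusted p = 0.0125).

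Ppp3cb, a second catalytic subunit gene, read 2.80, 2.86 and 3.01 in icKO and 2.99, 2.84 and 2.95 in controls (A_52_P306396). The groups covered each other, with a difference of -0.04 ± 0.10 (95% interval -0.28 to 0.21, limma adjusted p = 0.795). Ppp3cc, the third catalytic subunit gene, is in the list of partners and differed by -0.16 ± 0.10 (adjusted p = 0.229).

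Ppp3r1, which encodes the calcium-binding B subunit, read 2.76, 2.78 and 3.61 in icKO and 3.21, 3.25 and 3.10 in controls (A_55_P1990755). The icKO arrays did not behave alike, since replicates 1 and 2 lay below all controls and replicate 3 above them. The difference was -0.13 ± 0.24 (95% interval -0.70 to 0.44, limma adjusted p = 0.669). Without icKO replicate 3 it was -0.41 with an adjusted p of 0.0396, so 1 array decides whether Ppp3r1 passes the test. For the subunits as a group, the fit called 0 of 3, against 44.8% of all features, and 1 had groups that did not overlap, against 59.3% of features.

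Among the NFAT genes, Nfatc2 was the only one whose representative probe passed the test. Nfatc2 encodes NFAT1, the form known best from T cells and also present in other cells. This probe (A_55_P1967978, NM_001136073) read 2.78, 2.87 and 2.61 in icKO, against 1.90, 2.23 and 2.42 in controls. The lowest icKO array lay 0.19 above the highest control. The difference was 0.57 ± 0.16 (95% interval 0.19 to 0.95), or 1.48-fold, with a limma adjusted p of 0.0281. It passed in 12 of 20 alternative settings. Leaving out 1 array at a time gave 0.43 to 0.69, and the call was lost in 4 of those 6 fits, without icKO replicate 1 (adjusted p = 0.0684) or 2 (0.0817) and without control replicate 1 (0.0594) or 2 (0.0637).

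The dimmer Nfatc2 probe (A_52_P628171, NM_001037177) did not follow the brighter one. It read -1.32, -1.23 and -0.90 in icKO and -1.31, -1.02 and -0.83 in controls, with overlapping groups. Its difference was -0.10 ± 0.17 (95% interval -0.51 to 0.31, adjusted p = 0.671 in the limma fit over all kept probes). With the mean of both probes in place of the brighter one, the Nfatc2 difference was 0.24 and did not pass (adjusted p = 0.223). The dimmer minus the brighter probe was -4.11, -4.11 and -3.51 in icKO and -3.22, -3.25 and -3.26 in controls. These groups did not overlap and differed by -0.66, at the smallest p that 3 against 3 arrays allow (exact two-sided permutation test, p = 0.1, 0.15 adjusted over the 3 genes with a pair of probes). The rise was thus called on 1 of the 2 Nfatc2 probes.

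Nfatc1, known for its part in endocardial cells and heart valve development, also had probes that differed. The brighter one (A_51_P517870, NM_198429) read 1.12, 1.52 and 1.18 in icKO and 1.63, 1.17 and 1.51 in controls, with overlapping groups and a difference of -0.16 ± 0.17 (95% interval -0.56 to 0.24, limma adjusted p = 0.462). The dimmer one (A_51_P220135, NM_016791) read 0.00, -0.19 and -0.47 in icKO, against -0.67, -1.0 and -0.64 in controls. Every icKO value of this probe lay above every control value. It rose by 0.55 ± 0.16 (95% interval 0.16 to 0.94, adjusted p = 0.0346 over all kept probes), and passed in 11 of 19 alternative settings and in 1 of the 6 fits that leave out an array. The dimmer minus the brighter probe was -1.13, -1.71 and -1.66 in icKO and -2.30, -2.17 and -2.15 in controls. These did not overlap and differed by 0.71, again at the smallest p possible (exact two-sided permutation test, p = 0.1, adjusted 0.15).

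Nfatc3, another NFAT gene with a reported part in cardiac growth in mice, had lower means in icKO on both probes. The brighter probe (A_52_P333419, NM_010901) read -1.24, -1.21 and -1.42 in icKO and -0.85, -1.18 and -1.01 in controls. The groups did not overlap, by a gap of 0.03, and the difference of -0.28 ± 0.12 (95% interval -0.58 to 0.02) did not pass (limma adjusted p = 0.108). It did after normexp correction (-0.32, adjusted p = 0.0159) and with the mean of both probes (-0.30, adjusted p = 0.0417). The difference was -0.12 (adjusted p = 0.567) with median scaling and 0.15 (adjusted p = 0.437) with spike-in scaling. The dimmer probe (A_66_P117659) read -1.47, -1.37 and -1.50 in icKO, against -1.19, -1.09 and -1.09 in controls, and fell by 0.33 ± 0.09 on the log2 scale (adjusted p = 0.0295 over all kept probes). The call passed in 6 of 19 alternative settings and in 2 of the 6 fits that leave out an array. Its size also depended on the scaling: the difference was -0.17 (adjusted p = 0.336) when arrays were scaled on the median and 0.10 (adjusted p = 0.651) when scaled on spike-in probes. The dimmer minus the brighter probe changed by -0.04 between groups (exact two-sided permutation test, p = 0.9). With 3 against 3 arrays this test cannot show that the probes moved alike.

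Nfatc4, a further NFAT gene reported to act in mouse cardiac hypertrophy, read 0.51, 0.60 and 0.33 in icKO and 0.49, 0.10 and 0.61 in controls (A_52_P342159). The groups overlapped, and the difference was 0.08 ± 0.16 (95% interval -0.31 to 0.47, limma adjusted p = 0.706). On the spike-in scale it was 0.51 and passed (adjusted p = 0.0284).

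**Figure D3:**
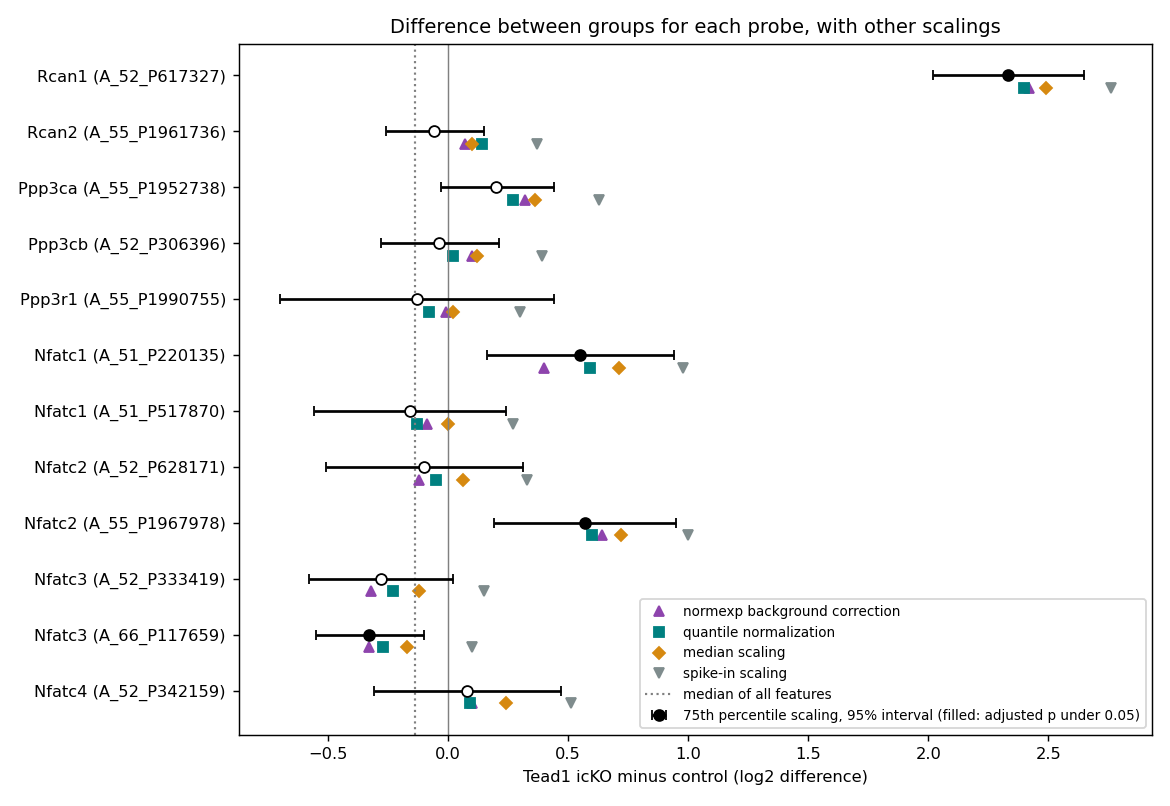
Difference in log2 signal, icKO minus control, of each of the 12 probes, with the 95% limma interval (circles, filled where the probe passed) and, below each, the difference under 4 other settings. The Rcan1 interval, 2.02 to 2.65, lies far from 0, the pairs of Nfatc1 and Nfatc2 probes point to different values, and spike-in scaling places every probe highest.

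The proteins that bind calcineurin or steer it moved in both directions. Of 15 listed partners and regulators, 13 were measured, 4 rose and 3 fell. This is 53.8% called, against 44.8% of all features, and the median difference was 0.06. The split was 6 higher and 1 lower under quantile normalization or spike-in scaling. Lmcd1, a LIM protein reported to act with calcineurin in cardiac hypertrophy, rose by 0.81 ± 0.10 (limma adjusted p = 0.00159), with 2.21, 2.40 and 2.42 in icKO and 1.53, 1.51 and 1.56 in controls. The calmodulin genes Calm2 and Calm3 rose by 0.53 ± 0.10 (adjusted p = 0.00772) and 0.50 ± 0.15 (adjusted p = 0.0337), the Calm3 probe pair being unequal (0.13 on the other probe). Cib1, which anchors calcineurin at the sarcolemma, rose by 0.43 ± 0.12 (adjusted p = 0.0282). Fkbp1a, the FK506-binding protein, fell by 0.56 ± 0.10 on its brightest probe (adjusted p = 0.00662), while another probe differed by 0.14 (adjusted p = 0.263), and the call was lost under quantile normalization (-0.21) and spike-in scaling (-0.13). Myoz2, the sarcomeric calcineurin inhibitor calsarcin-1, fell by 0.49 ± 0.16 (adjusted p = 0.0412), a call that passed in 7 of 20 alternatives, with -0.26 (adjusted p = 0.236) under quantile normalization. When arrays were left out 1 at a time, the Calm3 and Cib1 calls held in 2 of 6 fits each and the Myoz2 call in 1 of 6. Akap5, an anchor of calcineurin, fell by 3.33 ± 0.70 (adjusted p = 0.0147) over 5 arrays, since 1 control spot carried an outlier flag. Only 1 of 3 icKO arrays measured it above background, so it passed the filter on low values only through the controls. With the filter on all 6 arrays, 12 partners and regulators were left, of which 4 rose and 2 fell, with a median of 0.14.

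Calcium entry and release genes, which feed calcineurin, had 9 of 12 measured, of which 2 rose and 1 fell, with a median of 0.00. This is 33.3% called, against 44.8% of all features. Orai2, a store-operated calcium channel subunit, read 0.52, 0.46 and 0.11 in icKO, against -1.77, -2.35 and -2.18 in controls. The gap between its groups was wide, and the rise of 2.47 ± 0.19 (limma adjusted p = 0.000372) came to 5.53-fold, with 1.27 on its second probe and 1.62 on the first after normexp correction. Itpr3, an inositol trisphosphate receptor, rose by 0.72 ± 0.15 (adjusted p = 0.00914).

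The genes listed for rephosphorylating NFAT and for keeping it out of the nucleus were all measured, 14 of 14. By the brightest probe of each gene, 0 of these rose and 3 fell, with a median of -0.13, close to the -0.14 of all features. This is 21.4% called, against 44.8% of all features. In the limma fit over all kept probes, other Gsk3b probes rose by 0.30 (adjusted p = 0.0276) and 0.39 (adjusted p = 0.0158). The brightest Gsk3b probe differed by 0.27 (adjusted p = 0.0993). Another Mapk8 probe fell by 0.59 (adjusted p = 0.039). Mapk14 (p38 alpha) fell by 0.94 ± 0.10 (limma adjusted p = 0.000998), Mapk9 (JNK2) by 0.77 ± 0.09 (adjusted p = 0.00127) and the export receptor gene Xpo1 by 0.76 ± 0.22 (adjusted p = 0.0319), a call that held in 3 of the 6 fits that leave out an array. The split depended on the scaling, with 3 higher and 3 lower under quantile normalization and 4 higher and 1 lower with spike-in scaling.

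Of the 11 transcription factors listed as partners of NFAT, all measured, 4 rose and 2 fell, with a median of 0.32. This is 54.5% called, against 44.8% of all features. The list also holds Nfat5, which differed by 0.09 ± 0.22 (limma adjusted p = 0.754). Junb, Jund and Fos encode AP-1 subunits. Junb rose by 1.40 ± 0.11 (limma adjusted p = 0.000362), with 1 of 3 control arrays above background, Jund by 0.78 ± 0.11 (adjusted p = 0.00252) and Fos by 2.36 ± 0.53 (adjusted p = 0.0136). Junb thus passed the filter on low values only through icKO. With the filter on all 6 arrays, 10 genes of the list were left, of which 3 rose and 2 fell, with a median of 0.21. After normexp correction Junb rose by 0.34 (adjusted p = 0.0141) and Fos by 1.21 (adjusted p = 0.003). Gata6 rose by 0.64 ± 0.13 (adjusted p = 0.00896). Mef2c, a myocyte enhancer factor, fell by 0.72 ± 0.12 (adjusted p = 0.00413) and Mef2d by 0.45 ± 0.13 (adjusted p = 0.032). The Mef2d call held in 2 of the 6 fits that leave out an array, and with spike-in scaling 5 genes were higher and 0 lower.

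Genes reported as calcineurin and NFAT targets, other than Rcan1, did not move one way. Of 14 listed, 10 were measured, 4 rose and 3 fell, and the median was 0.55. This is 70% called, against 44.8% of all features. Egr2, an immediate early gene, read 0.29 and 0.50 in the 2 icKO arrays without an outlier flag. It was not well above background on any control array, so on this scale its signal was at least 15.5-fold brighter in icKO (limma adjusted p = 0.000226). Egr2 thus passed the filter on low values only through icKO. With the filter on all 6 arrays, 9 of the targets were left, of which 3 rose and 3 fell, with a median of 0.46. Across 19 alternative settings the Egr2 difference ran from 1.97 to 5.33 and passed in all 19. Edn1, which encodes the growth-promoting peptide endothelin-1, rose by 1.72 ± 0.17 (adjusted p = 0.000748), and Bcl2, a survival gene, by 1.45 ± 0.18 (adjusted p = 0.00163). Egr1, related to Egr2, rose by 0.87 ± 0.28 (adjusted p = 0.0435) with overlapping groups. Acta1, the skeletal actin gene of the fetal cardiac programme, fell by 2.69 ± 0.32 (adjusted p = 0.00143). Its signals were 3.50, 3.62 and 4.51 in icKO, against 6.90, 6.15 and 6.65 in controls. Nppb, which encodes the natriuretic peptide BNP, fell by 1.79 ± 0.54 (adjusted p = 0.0355). The Nppb and Egr1 calls each held in 1 of the 6 fits that leave out an array, with Nppb between -2.44 and -1.35 and Egr1 between 0.67 and 1.16. Nppa (0.46, adjusted p = 0.371), Myh7 (0.64, adjusted p = 0.126) and Vegfa (-0.16, adjusted p = 0.492) did not pass. With spike-in scaling 6 of these targets were higher and 2 lower.

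**Figure D4:**
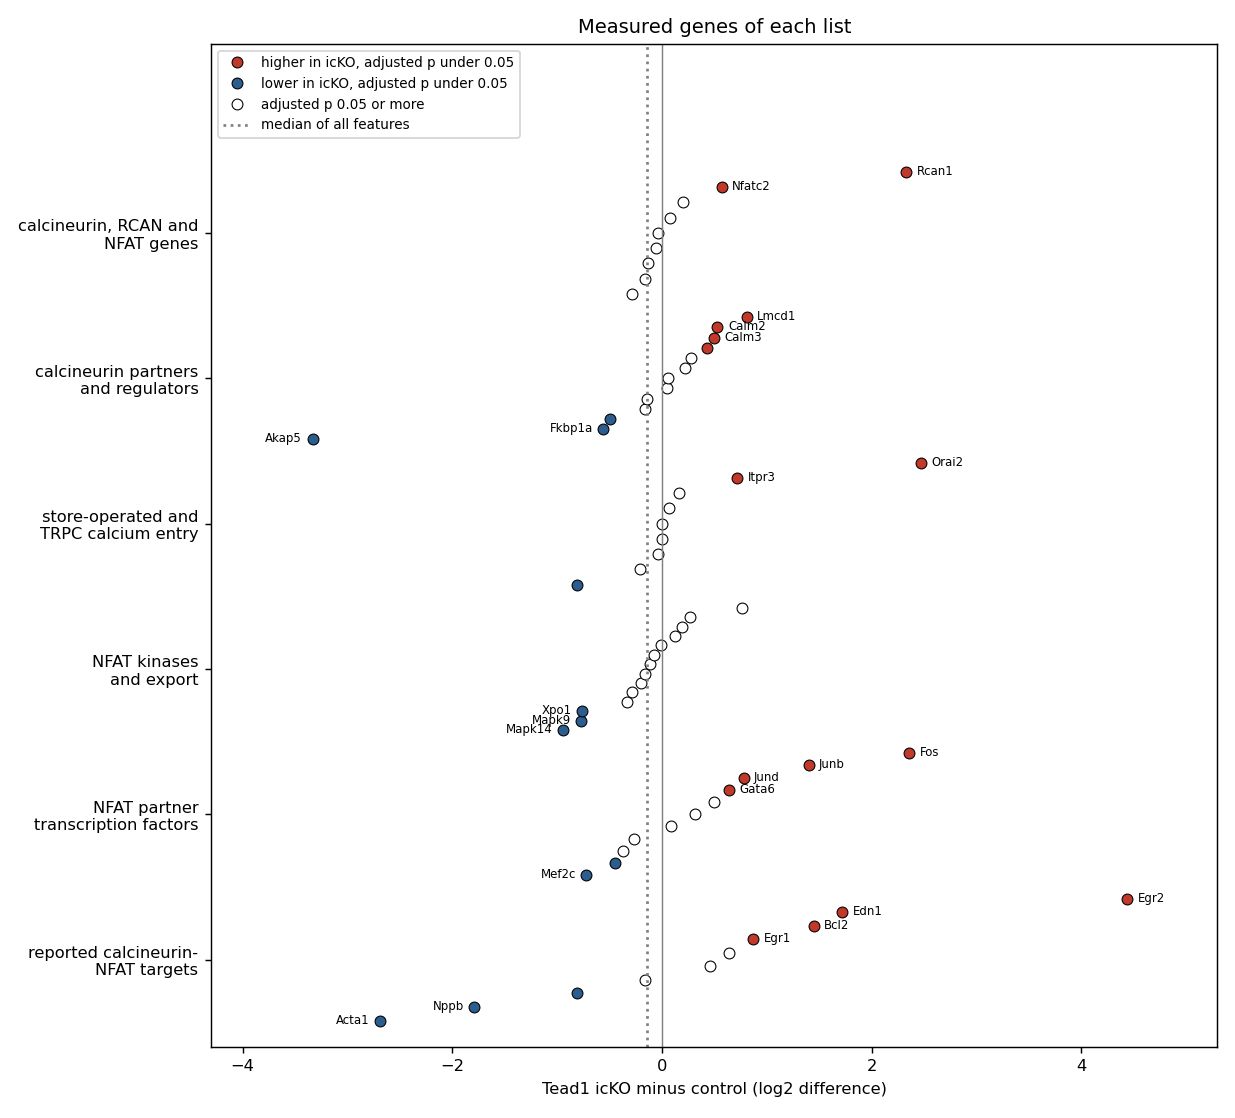
Difference in log2 signal, icKO minus control, of the 9 member genes and of every measured gene of the 5 pathway lists, 1 point per gene, filled where the gene passed the limma threshold (red higher, blue lower), with a dotted line at the median of all features, -0.14. Points lie on both sides of 0 in every list; Egr2 is drawn at its fitted difference of 4.44, although its control arrays were not above background.

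The ventricle holds several cell types, and their markers differed between the groups. Over all features, 16.0% were called higher and 28.7% lower. Cardiomyocyte markers defined the tissue in both groups: their summed level, in multiples of the 75th percentile signal, was 5420 to 6000 in icKO and 8370 to 10300 in controls, and 6 of 7 fell, or 2 of 7 with quantile normalization or spike-in scaling. Macrophage markers rose in 6 of 6, with sums of 76.4 to 99.1 in icKO and 33.1 to 46.4 in controls, and fibroblast markers in 5 of 6, with 480 to 574 in icKO and 200 to 326 in controls. Endothelial and endocardial markers split, 1 up (Vwf) and 3 down of 7, with sums of 67.1 to 117 in icKO and 41 to 48.3 in controls. Without Vwf, the other 6 summed to 20.1 to 23.8 in icKO and 26 to 32.2 in controls. T and NK lymphocyte markers, which bear on Nfatc2, summed to 4 to 4.38 in icKO and 5.15 to 6.21 in controls, where 1 (Lck) rose and 3 fell of 5 measured, and Cd3g and Cd8a were not well above background on any array. Mast cell markers rose in 2 of 4 (Cpa3 and Cma1) and fell in 1, with sums of 1.08 to 2.52 in icKO and 1.04 to 1.23 in controls. Cma1 was above background on 0 of 3 control arrays and Cpa3 on 2 of 3, so they passed the filter only through icKO. With the filter on all 6 arrays, 2 mast cell markers were left, of which 0 rose and 1 fell. Smooth muscle markers fell in 1 of 5 (Rgs5), with sums of 29.3 to 35.8 in icKO and 36.9 to 61.4 in controls. Without Rgs5, the sums overlapped, with 14.9 to 18.8 in icKO and 16.1 to 37.6 in controls. With spike-in scaling, 1 endothelial, 1 T and NK and 1 smooth muscle marker rose and 0 fell. The part of these shifts in the Rcan1 and Nfatc2 results was not tested. In whole ventricle RNA, fewer cells of a type and less RNA per cell cannot be told apart.

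The named genes whose profiles over the 6 arrays lay closest to a member were found by the root mean square distance of log2 values, each gene centred on its own mean. For Rcan1 these were Fxyd6 (0.133, difference 2.30), Tlr2 (0.133, difference 2.30) and Rbm47 (0.144, difference 2.10). For Nfatc2 they were Cdr2l (0.0797), Hivep1 (0.081) and Mpzl1 (0.0842), whose differences were 0.63, 0.63 and 0.67. For Rcan2 they included Gpi1 (0.0187) and Nenf (0.0197), with differences of -0.07 and -0.06. The distance was taken over both groups, so a neighbour's difference lies near that of the member by the choice itself.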

How the data were processed

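Ventricle RNA labelled with Cy3 was hybridised to Agilent one-colour arrays, per the labels' protocols. Each scanner file as deposited gives intensity per spot from Agilent Feature Extraction 11.0.1.1, background-subtracted within each array, on a design of build mm9, per the file headers, while the submitters' processing notes name version 9.1. The authors' deposited value table holds intensity that correlated with each array at 0.99955 or more, with column medians of 18.37 to 18.47. Its scale is linear, it is uncentred, each column is a single array's intensity so no direction had to be settled, and the sources used here do not give its normalization. It served as an alternative.

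Here the 62976 processed signals per array were put on the log2 scale and centred on the array's 75th percentile of non-control spots. Outlier-flagged spots were dropped, and replicate spots averaged per probe. Of 55681 probes, 26166 entered the tests because at least 1 group had all 3 arrays well above background. RefSeq accessions named 26582 probes through a GRCm38.p6 gene table, used for names only. Genes were represented by the kept probe with the highest mean, and each unnamed probe stood alone. Groups were compared with limma 3.58.1 (lmFit, eBayes) in R 4.3.3, Benjamini-Hochberg adjusted over 22292 features, and again over all kept probes, and the script was tested on simulated data. Where 0 arrays of a group measured a probe well above background, the fold is a lower bound (at least N-fold), with each dim value raised, if lower, to that array's lowest signal above background.

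Alternatives were normexp correction, quantile, median and spike-in scaling, the authors' table, other filters, the mean of a gene's probes, other limma settings, a replicate or slide row block, a minimum fold of 1.2 and leaving out each array. Normexp (offset 50) was planned on the mean signal, which is not a column of these files, and was run on the median signal and background. The number of arrays limits the precision. The members, the 5 pathway lists and the marker lists were chosen with earlier results of these data known. By rule, the text names all 9 members, per list up to 3 risen and 3 fallen genes by smallest p, Tead1, and the 3 nearest profiles of Rcan1, Rcan2 and Nfatc2. Genes named beyond it (Ppp3cc, Rcan3, Calm3, Gsk3b, Mapk8, Nfat5, Fos, Egr1, Nppa, Myh7, Vegfa and single markers) were chosen after their values were seen. A few genes taken by the rule are not reported here.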

Additional observations from a re-analysis of the deposited data

How the results depend on the processing

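The Rcan1 rise kept its direction and passed the threshold in all 20 alternatives (2.22 to 2.76, largest adjusted p 0.00375). The Nfatc2 call was lost when dim probes were not filtered out (adjusted p = 0.102), with a minimum fold of 1.2 (0.143), with the mean of its probes (0.223) and in 4 of the 6 fits that leave out an array. Of the 9 genes, 2 were called as reported, 4 with normexp correction or spike-in scaling, 1 with no filter or a minimum fold of 1.2, and 1 to 3 when an array was left out. Of the 12 probes, 4 were called as reported, 1 with no filter or a minimum fold of 1.2, and 1 to 4 when an array was left out. For partners and regulators the 7 calls became 3 with no filter, 2 with a minimum fold of 1.2, and 3 to 7 when an array was left out. For kinases and export proteins the 3 calls became 6 with normexp correction, quantile normalization, the authors' table or trended robust eBayes, 5 with spike-in scaling or the mean of a gene's probes, and 2 to 3 when an array was left out. The 9979 calls over all features became 6123 with no filter and 5346 with a minimum fold of 1.2, and 35.8% of the calls were higher in icKO, against 43.8% with quantile, 54.6% with median and 80.3% with spike-in scaling. With spike-in scaling the called falls of the dimmer Nfatc3 probe (0.10, limma adjusted p = 0.651) and Tead1 (0.03, adjusted p = 0.884) were lost. The brighter Nfatc3 probe, not called, differed by 0.15 on that scale. The cause of these shifts was not tested.

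The same replicate numbers occur in both groups, but same-numbered arrays did not deviate together (correlations of -0.05, -0.126 and -0.001). This cannot settle whether the numbers pair the mice, and the main fit used group only. With the number as a replicate block, 1 member gene (Rcan1), 1 member probe and 3 partners were called, Nfatc2 had an adjusted p of 0.0654, and 7881 features were called in all.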
